A study of Homo sapiens with 11 samples.

Results

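The plakin genes DST, MACF1, PLEC, DSP, PPL and EVPL were examined in HCC78 cells, a lung adenocarcinoma line. They were selected by gene name, and all 6 were found among the 57773 genes of the expression table and passed the filter for testing, a mean FPKM of 1 or more in the 9 RNA-seq libraries, which 15179 genes passed. The same names selected 57 of 92662 unique splicing events. The libraries came from the parental line, labelled dox minus (2 replicates), and from lines transduced with a doxycycline-inducible, FLAG and 6xHA tagged wild-type (WT) or S34F mutant U2AF1, a splicing factor that reads the 3′ splice site. The transduced lines were WT dox- (2 replicates), WT dox+ (2 replicates), S34F dox- (1 library, labelled replicate 2) and S34F dox+ (2 replicates). All groups share the background of HCC78, which carries U2AF1 S34F and a SLC34A2-ROS1 fusion of its own. The labels give S34F as 32% of U2AF1 in both parental libraries, 33% in both WT dox- libraries, 28% in S34F dox-, 12% and 14% in WT dox+, then 62% and 65% in S34F dox+. Each transgene was carried on a pTRIPz lentiviral vector in stable subclones. A difference between the WT and S34F lines cannot be told apart from a difference between subclones, and nothing in the labels says that replicates were separate cultures, so p-values measure only the spread between these libraries.

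Plakins are giant cytolinker proteins that tie the intermediate filaments, microtubules and actin filaments of a cell to each other and to its junctions. Desmoplakin (DSP) fastens keratin filaments to desmosomes at cell-cell contacts, while plectin (PLEC) and the epithelial isoform of dystonin (DST) do so at hemidesmosomes, which hold a cell to the basement membrane. MACF1 and the long isoforms of DST, the spectraplakins, join actin to microtubules, and periplakin (PPL) and envoplakin (EVPL) partner in the cornified envelope of stratified epithelia.

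In the deposited table, FPKM is a level scaled to transcript length and to the size of the library, whose number of reads is unknown. More genes were at 1 FPKM or above with doxycycline: 15736 to 20896 in the 4 libraries with it, against 13661 to 14688 in the 5 without. S34F dox+ replicate 2 had the most, 20896, and WT dox+ replicate 2 was next with 17716. The doxycycline comparisons below share this split, and its bearing on them was not tested. U2AF1 had an FPKM of 277.6 and 299.05 in WT dox+ libraries, 164.44 and 222.76 in S34F dox+ libraries, above the range of 102.76 to 115.06 in the 5 libraries without doxycycline. Its log2 fold change in S34F dox+ against WT dox+ was -0.59 (limma adjusted p = 0.531). In that comparison the level of U2AF1 and its mutation cannot be told apart. All 5 epithelial markers were present, and their summed FPKM lay between 4923.5 and 7223.71. Of the lung lineage markers NKX2-1 had a mean of 55.754 FPKM, NAPSA of 3.994 and SFTPB of 0.928. The leukocyte marker PTPRC stayed between 0 and 2.71 FPKM, and the summed fibroblast markers COL1A1 and COL3A1 between 3.13 and 8.02. In bulk RNA, fewer cells of a type and less RNA per cell cannot be told apart.

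The 6 genes kept a nearly fixed order of FPKM. MACF1 was the highest and DSP the lowest in all 9 libraries, and PPL ranked 4 and EVPL 5 in all 9. DST and PLEC exchanged ranks 2 and 3. DST was higher in both parental libraries (65.75 and 58.45, against 59.27 and 55.13 for PLEC) and in the 4 libraries with doxycycline. PLEC was higher in the 3 transduced libraries without doxycycline. Mean FPKM over the 9 libraries was 172.2 for MACF1, 91.46 for DST, 82.17 for PLEC, 54.61 for PPL, 37.45 for EVPL and 9.41 for DSP. Of the 15179 genes tested, 624 had a higher mean than MACF1 and 8001 a higher mean than DSP. EPPK1, a plakin gene not among the 6, was between 1.94 and 3.24 FPKM. The summed FPKM of the 6 genes was 335.02 to 407.71 in the 5 libraries without doxycycline and 515.01 to 559.12 in the 4 with it.

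**Figure D1:**
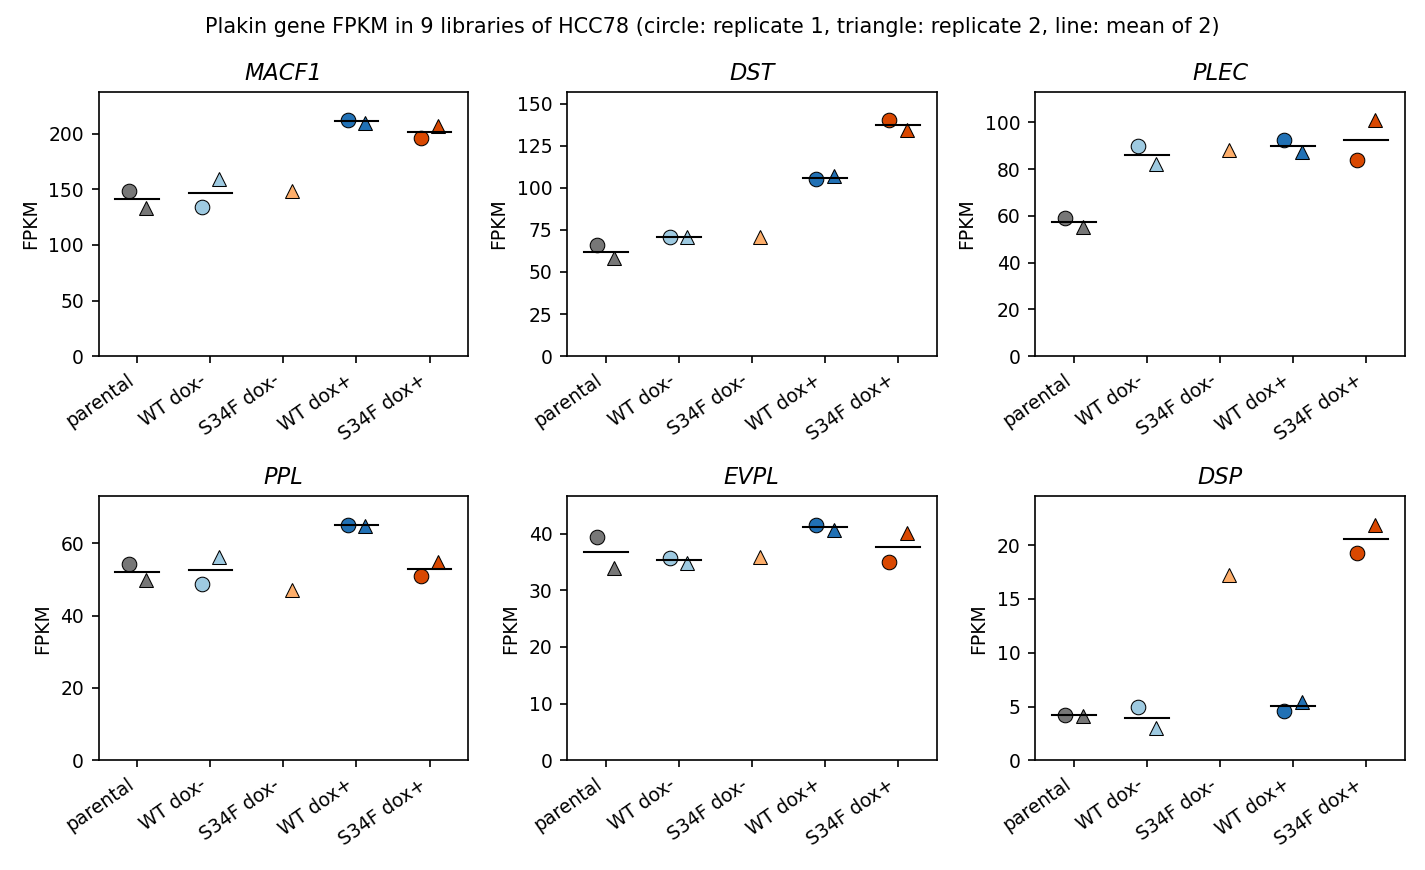
FPKM of each plakin gene (y axis, linear, from 0) in the 9 libraries by group (x axis), with circles for replicate 1, triangles for replicate 2 and a line at the mean of groups of 2. DSP lay between 17.2 and 21.9 in the 3 S34F-line libraries and between 2.98 and 5.4 in the other 6, whereas DST and MACF1 were higher in the 4 dox+ libraries than in the other 5.

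The desmosomal plakin, DSP (ENSG00000096696.9), separated the S34F line from all other cells, with and without doxycycline. Its FPKM was 4.23 and 4.13 in the parental line, 4.93 and 2.98 in WT dox-, 4.63 and 5.4 in WT dox+, 17.2 in S34F dox-, and 19.29 and 21.9 in S34F dox+. The 3 libraries of the S34F line were thus above the other 6 without overlap, as were 1.29% of all genes tested. The tests set this separation against the spread between replicates, and none of them passed the threshold of 0.05 for the adjusted p.

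In S34F dox+ against WT dox+, which asks what differs between the mutant and wild-type lines under induction, DSP had a log2 fold change of 1.84 (standard error 0.21, 95% interval 1.35 to 2.34, limma adjusted p = 0.0588, Benjamini-Hochberg over all genes tested). Fold changes are on the log2(FPKM + 1) scale, on which that of DSP corresponds to a ratio of 3.59, and understate the change of low genes. DSP ranked 9 by p, after the 8 genes (0.0527%) that passed. In S34F dox- against WT dox-, a comparison added after the values were seen, the log2 fold change was 1.91 (standard error 0.26, 95% interval 1.30 to 2.52, limma adjusted p = 0.131) with 1 S34F library. The share of genes that passed there was 0.0461%, and no plakin gene was among them. At an unadjusted p under 0.05, DSP was the only plakin gene, where 3.12% of all genes passed. The difference between the doxycycline responses of the lines was -0.061 for DSP, with a 95% interval of -0.85 to 0.73.

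Of the libraries without doxycycline, S34F dox- was labelled 28% S34F and had a DSP of 17.2 FPKM, whereas WT dox- was labelled 33% and had at most 4.93 FPKM. S34F dox- is 1 library, and whether DSP follows the S34F percentage was not tested. U2AF1 itself was 115.06 FPKM in S34F dox- and 111.5 and 109.92 in WT dox-. Over the 9 libraries, the genes with FPKM most like that of DSP on the log2 scale, out of 10023 genes whose mean FPKM was 5 or more, were BTBD7 (Pearson r = 0.963) and PTPRG (Pearson r = 0.958). These correlations are descriptions over libraries that share groups. PTPRG ranged from 4.8 to 13.87 FPKM.

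The stretch before the DSP start is shown because DSP is the plakin gene whose level differed most between the lines. CAGGTG, an E-box, is bound by the repressors of epithelial genes of the SNAI and ZEB families, and it was searched on both strands (as CAGGTG or CACCTG). The sequence is RefSeq's for GRCh38.p14, chr6:7541421-7541670 on the plus strand, with the matches in capitals.
DSP: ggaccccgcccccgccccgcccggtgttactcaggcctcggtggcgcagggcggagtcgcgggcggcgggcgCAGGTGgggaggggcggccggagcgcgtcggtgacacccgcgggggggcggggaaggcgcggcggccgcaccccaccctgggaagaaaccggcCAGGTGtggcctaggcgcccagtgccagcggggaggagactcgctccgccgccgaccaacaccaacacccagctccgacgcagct
The matches began 178 and 85 bases before the annotated start. Of 35116 such windows of 250 bases, 17.5% held at least 1 match and 2.53% held at least 2. The 3 windows of DST held 0 matches, and 1 of the 3 windows of MACF1 held 1. A match says only that the letters are there.

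The spectraplakins DST and MACF1 were higher with doxycycline in both lines. FPKM of DST (ENSG00000151914.13) was 65.75 and 58.45 in the parental line, 70.95 and 70.65 in WT dox-, 70.62 in S34F dox-, 105.11 and 106.96 in WT dox+, then 140.12 and 134.49 in S34F dox+. The 3 transduced libraries without doxycycline lay between 70.62 and 70.95, the WT dox+ libraries were above them and the S34F dox+ libraries above those. How many of all genes had this order was not counted. FPKM of MACF1 (ENSG00000127603.19) was 149.01 and 133.68 in the parental line, 134.07 and 159.29 in WT dox-, 148.81 in S34F dox-, 212.19 and 210.07 in WT dox+, then 195.86 and 206.84 in S34F dox+. Both genes were above all 5 libraries without doxycycline in all 4 with it, as were 7.64% of the genes tested. With doxycycline both WT libraries of MACF1 were above both S34F libraries, and the share of all genes with that order was not counted.

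The comparison of WT dox+ with WT dox- gives the response to doxycycline and to wild-type U2AF1 together, which cannot be told apart. In it the log2 fold change was 0.58 for DST (standard error 0.10, 95% interval 0.34 to 0.81, limma adjusted p = 0.122) and 0.53 for MACF1 (limma adjusted p = 0.156). Neither passed the threshold, and neither did the other 4 plakin genes, against 0.0132% of all genes tested. At an unadjusted p under 0.05 DST, MACF1 and PPL were higher and none of the 6 was lower, where 8.8% of all genes tested were higher. The median log2 fold change of the 6 genes was 0.31, beside 0.05 over all genes tested.

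In S34F dox+ against S34F dox-, a comparison added after the values were seen, DST rose by a log2 fold change of 0.95 (standard error 0.12, 95% interval 0.66 to 1.24, limma adjusted p = 0.0385), a ratio of 1.93 between 2 libraries and 1. It was the only plakin gene that passed, as did 0.283% of all genes tested. The call did not hold without S34F dox+ replicate 1 (0.92, limma adjusted p = 0.0843) or replicate 2 (0.98, limma adjusted p = 0.163), nor with median-ratio scaling (0.88, limma adjusted p = 0.0613) or TPM (0.83, limma adjusted p = 0.0794). MACF1 had a log2 fold change of 0.43 there (limma adjusted p = 0.233). The comparison shares its S34F dox+ libraries with the comparison of the lines.

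Between the lines under doxycycline, DST had a log2 fold change of 0.37 in S34F dox+ against WT dox+ (95% interval 0.13 to 0.61, limma adjusted p = 0.546), and MACF1 one of -0.07 (limma adjusted p = 0.948). The doxycycline response of DST was 0.37 larger in the S34F line than in the WT line, with a 95% interval of -0.001 to 0.75 and an adjusted p of 1 from limma. No plakin gene passed in that comparison of responses, against 0.0264% of all genes, and 0 were at an unadjusted p under 0.05, where 3.42% of all genes were. The genes with FPKM most like that of DST over the 9 libraries were C1orf112 (Pearson r = 0.988) and BIRC6 (0.982), and for MACF1 they were AKAP13 (0.981) and the pseudogene RP11-318K12.1 (0.976). BIRC6 ranged from 26.64 to 59.23 FPKM and AKAP13 from 47.51 to 95.48.

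**Figure D2:**
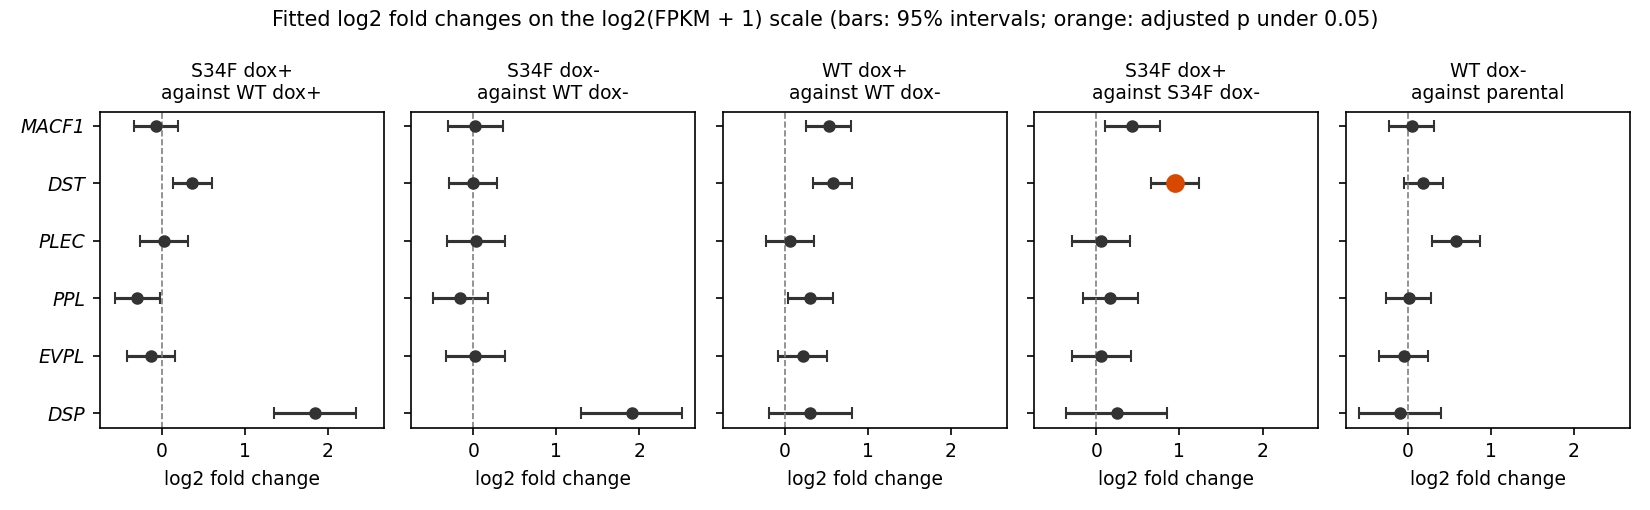
Fitted log2 fold changes of the 6 plakin genes (x axis, log2(FPKM + 1) scale) in 5 comparisons, with 95% intervals as bars and orange for an adjusted p under 0.05. DSP stood at 1.84 and 1.91 in the comparisons of the S34F with the WT line, and DST at 0.95 in S34F dox+ against S34F dox-, the only value that passed.

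PLEC, the linker of keratin to hemidesmosomes, separated the transduced lines from the parental line and varied little among the former. FPKM of PLEC (ENSG00000178209.10) was 59.27 and 55.13 in the parental line, 90.07 and 82.39 in WT dox-, 88.28 in S34F dox-, 92.65 and 87.15 in WT dox+, then 83.72 and 100.87 in S34F dox+. All 7 transduced libraries were above both parental libraries, and the 4 transduced groups overlapped. The same separation was seen for DST, and in all for 5.3% of the genes tested. In WT dox- against the parental line, added after the values were seen, PLEC had a log2 fold change of 0.58 (standard error 0.13, limma adjusted p = 0.149), and no plakin gene passed, against 0.0988% of all genes. PLEC was the only plakin gene at an unadjusted p under 0.05 there, as were 12.3% of all genes. PLEC had a log2 fold change of 0.03 in S34F dox+ against WT dox+ (limma adjusted p = 0.985), with a 95% interval of -0.26 to 0.32. RBBP6 (Pearson r = 0.973) and GBF1 (0.968) were the genes most like PLEC over the 9 libraries.

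PPL and EVPL, the cornified envelope partners, were the steadiest of the 6. FPKM of PPL (ENSG00000118898.11) was 54.19 and 49.74 in the parental line, 48.8 and 56.08 in WT dox-, 46.93 in S34F dox-, 65.13 and 64.84 in WT dox+, then 50.9 and 54.92 in S34F dox+. The WT dox+ libraries were above the other 7, which overlapped. The share of all genes with that split was not counted. In S34F dox+ against WT dox+ PPL had a log2 fold change of -0.29 (unadjusted p = 0.037, limma adjusted p = 0.703), the only plakin gene below 0 at an unadjusted p under 0.05, where 2.77% of all genes tested were lower. DSP and DST were above 0 at that unadjusted p, where 4.01% of all genes tested were higher, and the median log2 fold change of the 6 genes was -0.02, beside 0.03 over all genes. FPKM of EVPL (ENSG00000167880.3) was 39.42 and 33.89 in the parental line, 35.64 and 34.88 in WT dox-, 35.87 in S34F dox-, 41.58 and 40.59 in WT dox+, then 35.06 and 40.1 in S34F dox+, and its highest library was 1.23 times its lowest. Its log2 fold change in S34F dox+ against WT dox+ was -0.13 (limma adjusted p = 0.888). The genes most like PPL were RFX7 (Pearson r = 0.944) and FAM149B1 (0.941), and those most like EVPL were TP53BP1 (0.946) and WDR90 (0.937).

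The structures at which plakins act gave 5 lists of genes, and a listed gene need not encode a protein that plakins bind. Of 13 desmosome genes 7 were tested, of 6 hemidesmosome genes 6, of 11 intermediate filament genes 9, of 13 microtubule and nuclear envelope linkers 11, and of 11 cornified envelope genes 3. In S34F dox+ against WT dox+ 0 of these genes passed the adjusted p in limma, and the same held for WT dox+ against WT dox- and for the comparison of responses. The shares of all genes tested that passed were 0.0527%, 0.0132% and 0.0264%, in that order. At an unadjusted p under 0.05 in S34F dox+ against WT dox+, 1 desmosome, 1 hemidesmosome and 2 intermediate filament genes were higher and 1 hemidesmosome gene was lower. Of all genes tested, 4.01% were higher and 2.77% lower by that rule.

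Among the desmosome genes, the cadherins DSC2 and DSG2 were, like DSP, above all other libraries in the 3 S34F-line libraries, by smaller margins. Of all genes tested, 1.29% were higher in these 3 libraries without overlap. FPKM of DSC2 was 22.79 and 19.62 in the parental line, 18.96 and 18.74 in WT dox-, 22.0 and 21.11 in WT dox+, 24.66 in S34F dox-, and 30.97 and 28.39 in S34F dox+. Its log2 fold change was 0.44 in S34F dox+ against WT dox+ (limma adjusted p = 0.555). FPKM of DSG2 was 196.85 and 192.66 in the parental line, 198.09 and 180.92 in WT dox-, 197.37 and 194.71 in WT dox+, 207.68 in S34F dox-, and 262.33 and 207.75 in S34F dox+. The values of DSG2 in S34F dox- and S34F dox+ replicate 2 were close to the highest of the other 6 libraries, 198.09, and no desmosome gene passed the adjusted p in limma in any of the 6 comparisons, with 1 (DSC2) higher at an unadjusted p under 0.05 in S34F dox+ against WT dox+. FPKM of JUP (plakoglobin, which links the cadherins to DSP) was between 118.49 and 169.02 over the 9 libraries, with S34F dox+ and WT dox+ overlapping. Of the 7 desmosome genes tested, only 4 had a log2 fold change above 0 in S34F dox+ against WT dox+. The median of the 7 was 0.10, beside 0.03 over all genes.

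Among the intermediate filament genes, which DSP and PLEC bind through their proteins, VIM and KRT17 had the largest fold changes between the lines. FPKM of VIM, the mesenchymal filament protein vimentin, was 21.97 and 22.25 in the parental line, 19.86 and 12.1 in WT dox-, 42.13 in S34F dox-, 27.76 and 28.12 in WT dox+, then 73.16 and 66.17 in S34F dox+. The 3 S34F-line libraries were above the other 6, as for DSP and for 1.29% of all genes tested. The log2 fold change of VIM was 1.29 in S34F dox+ against WT dox+ (limma adjusted p = 0.234) and 1.38 in S34F dox- against WT dox- (limma adjusted p = 0.441). KRT17, a stress-associated keratin, was at 87.14 and 41.05 FPKM in S34F dox+ and 15.59 and 13.65 in WT dox+, but at 26.64 in a parental library. Its log2 fold change was 1.97 with an adjusted p of 0.546 from limma. The most abundant keratins, KRT7 and KRT19, stood between 2872.82 and 4195.52 and between 1434.72 and 2246.3 FPKM.

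Among the hemidesmosome genes, LAMA3, a chain of the laminin to which hemidesmosomes attach, was higher with doxycycline, like DST. Like 7.64% of all genes tested, it was higher in all 4 libraries with doxycycline than in the other 5. Its FPKM was between 116.88 and 125.34 in the 5 libraries without doxycycline and between 179.24 and 202.74 in the 4 with it. The log2 fold changes were 0.59 in WT dox+ against WT dox- (limma adjusted p = 0.101) and 0.75 in S34F dox+ against S34F dox- (limma adjusted p = 0.0644). LAMB3, the other abundant gene of the list, was at 107.89 to 175.71 FPKM in the 5 libraries without doxycycline. It was at 96.2 and 96.38 in WT dox+, and at 144.95 and 111.23 in S34F dox+. Its log2 fold change was -0.51 in WT dox+ against WT dox- (limma adjusted p = 0.231), opposite in sign to that of LAMA3. In S34F dox+ against S34F dox- it was -0.47, and in S34F dox+ against WT dox+ 0.40 (limma adjusted p = 0.697). The integrin chain ITGA6 was at 5.88 and 9.14 FPKM in S34F dox+ against 12.2 and 15.07 in WT dox+, with a log2 fold change of -0.80 (limma adjusted p = 0.545). COL17A1, which binds both PLEC and the epithelial DST, was at 0.47 to 2.36 FPKM in all 9 libraries.

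Among the microtubule and nuclear envelope linkers, SYNE2, a giant spectrin-repeat protein of the nuclear envelope, was higher with doxycycline in both lines. Its FPKM was 6.56 and 9.4 in the parental line, 9.19 and 7.22 in WT dox-, 5.45 in S34F dox-, 18.09 and 19.04 in WT dox+, then 18.9 and 20.23 in S34F dox+. The 4 dox+ libraries were above the other 5 without overlap, as for 7.64% of all genes tested. SYNE2 rose in S34F dox+ against S34F dox- by a log2 fold change of 1.67 (limma adjusted p = 0.0471), a call that did not hold without either S34F dox+ replicate (limma adjusted p = 0.109 and 0.21), with median-ratio scaling (limma adjusted p = 0.0607) or with TPM (limma adjusted p = 0.0698). SYNE2 had a log2 fold change of 1.10 in WT dox+ against WT dox- (limma adjusted p = 0.119). SYNE1, of the same list, was also higher with doxycycline, at 16.31 to 19.26 FPKM without it and 34.72 to 41.6 with it. Its log2 fold change in WT dox+ against WT dox- was 1.04 (limma adjusted p = 0.0767). The plus-end protein MAPRE1, which spectraplakins bind, was between 38.23 and 48.16 FPKM throughout. Its relative MAPRE2 was between 7.63 and 10.31 FPKM, and the microtubule stabilizers CLASP1 and CLASP2, which also bind spectraplakins, were between 13.45 and 24.72 and between 18.16 and 35.72 FPKM.

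The cornified envelope genes that PPL and EVPL serve in skin were low. IVL, TGM1 and KAZN were the only ones of 11 tested, with means of 1.194, 2.183 and 1.846 FPKM against 54.61 for PPL and 37.45 for EVPL.

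**Figure D3:**
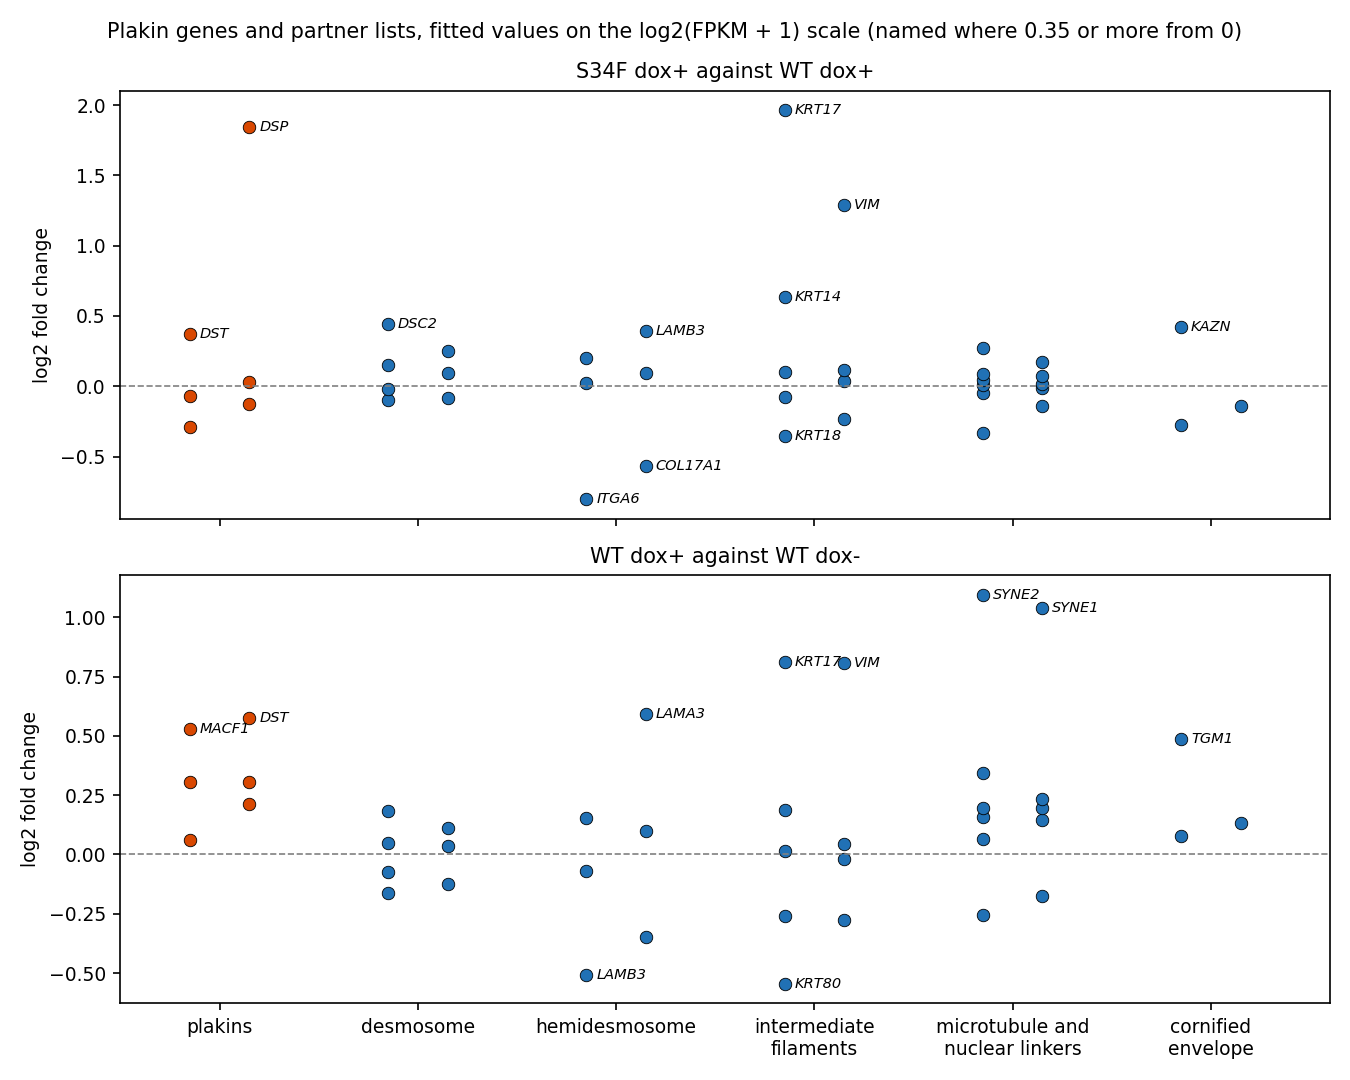
Fitted log2 fold changes (y axis, log2(FPKM + 1) scale) of the 6 plakin genes in orange and of the tested genes of 5 partner lists in blue, for S34F dox+ against WT dox+ (top) and WT dox+ against WT dox- (bottom). KRT17 (1.97), DSP (1.84) and VIM (1.29) were the highest in the top panel, and SYNE2 (1.10) in the bottom one, and no gene shown passed an adjusted p of 0.05.

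Splicing was deposited as a single MISO comparison of S34F with wild-type cells, with no replicates, so no test can be made and the libraries behind each side are not given in the sources used here. PSI is the fraction of transcripts that take 1 of 2 alternatives, and which one it counts was read from the tables by comparing each event with the introns listed in the retained intron table. For skipped exons it is the fraction that includes the exon, and for alternative 5′ sites, 3′ sites and NAGNAG pairs the fraction that uses the site named second here. For the retained intron it is the spliced fraction. An event was called at a Bayes factor of 5 or more, where PSI differed by 0.10 or more and the reads summed to 10 or more. Where an event had several PSI values, only the one with the largest Bayes factor was used. The 57 plakin events comprised 24 of MACF1, 13 of DST, 10 of PLEC, 5 of EVPL, 3 of PPL and 2 of DSP. By type, 24 were NAGNAG pairs (acceptors 3 bases apart), 21 were skipped exons, 8 offered a choice of 5′ site, 3 offered a choice of 3′ site and 1 was a retained intron. The reads ranged from 895 to 19072 per event on the S34F side and from 966 to 27611 on the wild-type side, and many events of a gene had nearly the same number, as with 6172 S34F reads for most NAGNAG pairs of MACF1, so the reads are not those of the alternative junctions alone. DSP had 2601 S34F and 968 wild-type reads, the reverse of the order in the other 5 genes. These reads may be from the libraries whose FPKM is given above and are not independent of it.

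**Figure D4:**
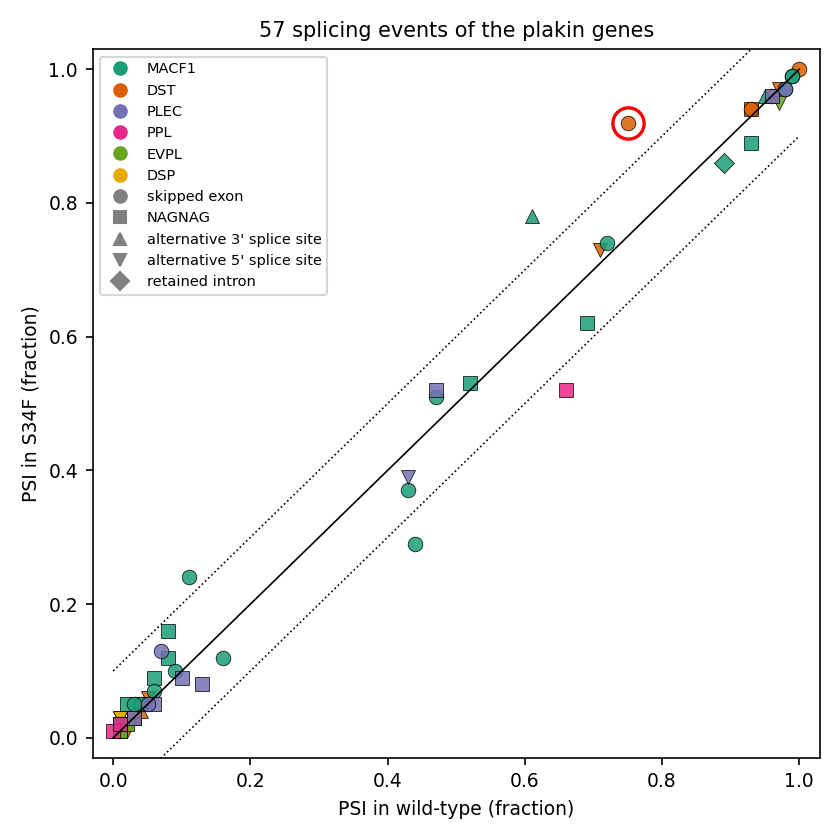
PSI in S34F (y axis, fraction) against PSI in wild-type (x axis, fraction) for the 57 events, by gene (color) and event type (shape). The solid line marks equal PSI and the dotted lines a difference of 0.10, and the red circle marks the called exon of DST, at 0.92 and 0.75.

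Most plakin events were the same on both sides: 38 of 57 differed in PSI by at most 0.02, and 5 differed by at least 0.10. Of all events with at least 1000 reads, 16.6% differed by at least 0.10. In 35 of the 57 the PSI lay outside 0.1 to 0.9 on both sides, so 1 alternative prevailed, and 14 lay between these limits on both sides, 10 of them in MACF1.

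The 1 called event of the 57, where 1.18% of 87763 events were called, was a skipped exon of DST near the 3′ end of the gene. Coordinates are those of the deposited tables, whose build the submitters' notes name as GRCh37 (hg19). The gene lies on the minus strand of chromosome 6, and the tables list it from 56322785 to 56507794 for this event. From the donor at 56328363 splicing ran either to the exon's acceptor at 56327954 or past it to the acceptor at 56325052, which lies 2267 bases before the listed end. PSI was 0.92 in S34F and 0.75 in wild-type, a difference of 0.17, with a Bayes factor of 5.28 on 9776 and 12316 reads. It was just past the minimum of 5. Among skipped exons with at least 1000 reads, 1.58% were called. The other 4 skipped exons of DST differed by at most 0.01, and an alternative 5′ splice site upstream, with donors at 56334663 and 56334681 before the acceptor at 56330993, had a PSI of 0.73 in S34F against 0.71 in wild-type.

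MACF1 had the most variable events and no call. At an alternative 3′ splice site on the plus strand of chromosome 1, the donor at 39929358 was joined to an acceptor at 39934269 or at 39934287, 18 bases on, and the farther one had a PSI of 0.78 in S34F against 0.61 in wild-type (Bayes factor 0.87). A skipped exon between the same donor and the acceptor at 39934287, entered at 39930767, had a PSI of 0.29 in S34F against 0.44 in wild-type (Bayes factor 0.73). These events share splice sites and reads and are not independent. A skipped exon entered at 39764924 from the donor at 39763417 had a PSI of 0.24 in S34F against 0.11 in wild-type (Bayes factor 0.56). The largest Bayes factor of a MACF1 event was 1.33, at a NAGNAG pair at 39717518 and 39717521 with a PSI of 0.53 and 0.52.

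The remaining genes had fewer alternatives. In PPL, on the minus strand of chromosome 16, a NAGNAG pair at 4950869 and 4950866 had a PSI of 0.52 in S34F against 0.66 in wild-type (Bayes factor 0.56). The 10 events of PLEC all differed by less than 0.10, the largest Bayes factor being 0.52. All 5 events of EVPL and both of DSP differed by at most 0.02. The DSP event with donors at 7581802 and 7580473 had 3 values, and only the one with the largest Bayes factor was used. DSP, the gene with the largest difference in level between the lines, had an alternative 5′ splice site on chromosome 6 with donors at 7581802 and 7580005, 1797 bases apart, and the latter had a PSI of 0.03 in S34F against 0.01 in wild-type (Bayes factor 1.32). These donors separate a longer and a shorter form of the DSP transcript, and the longer one made up nearly all of it on both sides.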

How the data were processed

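RNA-seq of 9 HCC78 libraries was analysed. The libraries were made from total RNA with a stranded kit. Per the submitters' processing notes, reads were aligned with STAR 2.3.0 to GRCh37 (hg19) and quantified with RSEM 1.2.29, and the authors deposited FPKM and TPM values per gene without counts, so the depth is unknown, no counting interval can be given and no count test was possible. The deposited MISO tables hold PSI as a fraction, Bayes factors as a score, reads as counts, and columns of the authors' own PSI difference, which were not used. PSI differences were recomputed as S34F minus wild-type. Which alternative PSI counts was settled after seeing the data from events with at least 1000 wild-type reads in which 1 of the 2 junctions is an intron of the retained intron table: PSI lay on the side of the second named junction in 84.1% and 97.2% of alternative 5′ sites, 84.5% and 91.4% of 3′ sites and 90.6% and 76.2% of NAGNAG pairs. For skipped exons it lay on the side of inclusion in 74.5% of events in which that intron leads into the exon, and on the side of skipping in 86.7% of those in which it skips the exon. Of the retained intron events, PSI was over 0.9 in 54.5% and under 0.1 in 8.4%, and it was read as the spliced fraction.

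FPKM values were fitted as log2(FPKM + 1) with limma-trend (limma 3.58.1, R 4.3.3) over the 15179 genes whose mean FPKM was 1 or more, with 5 groups in a single fit, no covariates, two-sided tests, Benjamini-Hochberg adjustment over all genes tested and a threshold of 0.05. The single S34F dox- library was assumed to vary like the other groups. Of 6 comparisons, 3 were chosen after the values were seen. The fit was tested on simulated data. The 6 genes and the partner lists were chosen with earlier results of these data known. Of the partners, those past the threshold in any comparison were named, and per list the 2 most abundant and the 2 with the largest fold change in S34F dox+ against WT dox+. SYNE1 was added after the values were seen. A partner gene is not reported here and was left out of its list. For each plakin gene the 2 genes with the highest Pearson correlation of log2(FPKM + 1) were named. Motifs were counted in RefSeq promoter windows, in which DST, MACF1 and DSP had entries. iCLIP data were not used here, and the trinucleotides at the 3′ splice sites and PECAM1 were not analysed here.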

Additional observations from a re-analysis of the deposited data

How the results depend on the processing

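The alternatives were a pseudocount of 0.1, no minimum FPKM, median-ratio scaling, TPM, a replicate block, a fit of the 4 dox+ libraries, each replicate left out in turn, and stricter rules for events. Those for the 3 added comparisons were chosen after seeing the data. The count of plakin genes past the threshold was 0 in 5 of the 6 comparisons under every alternative run. In S34F dox+ against S34F dox- it was 1 (DST) and went to 0 with median-ratio scaling, with TPM and with the replicate block (0.92, limma adjusted p = 0.106), and it was 0 to 0 over the replicates left out. The count of called events was 1 and went to 0 at a Bayes factor of at least 20 or a PSI difference of at least 0.20. The log2 fold change of DSP in S34F dox+ against WT dox+ stayed between 1.75 and 1.94 with a replicate left out (limma adjusted p = 0.196 to 0.415) and between 1.72 and 2.02 in the other alternatives (limma adjusted p = 0.0659 to 0.307).

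Of the partners, SYNE2 in S34F dox+ against S34F dox- passed only in part of the alternatives, and with no minimum FPKM SYNE2 (limma adjusted p = 0.0752) did not pass and LAMA3 (limma adjusted p = 0.0492) did.

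The values that changed sign lay near 0. With median-ratio scaling these were DST in S34F dox- against WT dox- (0.003) and PLEC and EVPL in S34F dox+ against S34F dox- (-0.016 and -0.01). With TPM they were DST in S34F dox- against WT dox- (0.031), PLEC in S34F dox+ against WT dox+ (-0.085), PLEC and EVPL in S34F dox+ against S34F dox- (-0.066 and -0.058), and EVPL in WT dox- against the parental line (0.049). With the replicate block it was DST in S34F dox- against WT dox- (0.022). TPM moved the median of all genes from 0.035 to -0.106 in the comparison of responses, from 0.029 to -0.074 in S34F dox+ against WT dox+ and from 0.087 to -0.03 in S34F dox+ against S34F dox-. The cause was not tested.

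With a replicate left out, ranges that crossed 0 in WT dox- against the parental line were -0.074 to 0.173 for MACF1, -0.088 to 0.109 for PPL, -0.157 to 0.055 for EVPL and -0.38 to 0.195 for DSP. For the difference in response they were -0.218 to 0.029 for MACF1, -0.136 to 0.13 for PLEC and -0.349 to 0.227 for DSP. In S34F dox- against WT dox- they were -0.098 to 0.149 for MACF1 and -0.029 to 0.098 for PLEC. In WT dox+ against WT dox- PLEC ranged from -0.003 to 0.124 and in S34F dox+ against WT dox+ from -0.101 to 0.165. In S34F dox+ against S34F dox- PLEC ranged from -0.076 to 0.19 and EVPL from -0.032 to 0.157. Same-numbered replicates did not deviate together (Pearson r over genes -0.076 to 0.037 in 6 pairs of groups). No pairing by number was seen, but noise in FPKM could hide a small shared effect. Since S34F dox- is 1 library, no value without it exists for the comparisons that use it, and the unknown read depth leaves the counting error of DSP at low FPKM unmeasured.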
